A study of Mus musculus with 6 samples.

Results

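The genes described here are 34 that carry glucose to pyruvate and lactate or decide whether pyruvate enters the mitochondrion: glucose transporters, the enzymes of glycolysis with their isoenzymes, lactate dehydrogenases and monocarboxylate transporters, and the carrier and regulators of pyruvate entry. They were picked by gene symbol, and all 34 were found among the 36706 genes of each deposited table. Messenger RNA was sequenced from dendritic cells grown from wild-type mouse bone marrow with 20 ng/mL GM-CSF, a cytokine that turns marrow precursors into dendritic cells and macrophages in culture. In 3 libraries the cells had received IFN-γ together with 4-OI, and in 3 they had received IFN-γ alone. 4-OI is 4-octyl itaconate, a form of the metabolite itaconate that enters cells, and IFN-γ is a cytokine of T cells and natural killer cells. The comparison asks how 4-OI altered these genes in cells that all had IFN-γ. There were no cells without IFN-γ and none with 4-OI alone, and the labels give neither dose nor duration. The titles call the cells macrophages, the other labels dendritic cells.

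Glycolysis splits glucose into pyruvate in the cytosol and yields ATP without oxygen. Phosphofructokinase 1 is its main point of control, and the PFKFB enzymes make and remove the small molecule that activates it. Pyruvate then either becomes lactate, which leaves the cell through monocarboxylate transporters, or enters the mitochondrion through a carrier of 2 subunits and is oxidised by pyruvate dehydrogenase, which kinases switch off and phosphatases switch on. Dendritic cells and macrophages raise glycolysis when activated, and itaconate is made in such cells from an intermediate of the citric acid cycle.

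The libraries held 19656368 to 29244717 counts with 4-OI and 21710639 to 27510232 with IFN-γ alone, so that 3 counts correspond to 0.102 to 0.163 CPM, the count of a gene scaled to a common library size. The 34 genes took 1.41% to 1.54% of all counts with 4-OI and 1.59% to 1.73% with IFN-γ alone. In CPM, scaled as described below, they summed to 16151 to 16366 with 4-OI and 14123 to 16171 with IFN-γ alone, with overlapping groups. The 10 genes with most counts took 15.1% to 16.9% of all counts with 4-OI and 7.37% to 8.59% with IFN-γ alone. Itgax, which encodes the dendritic cell integrin CD11c, averaged 214 ± 8.73 CPM with 4-OI and 514 ± 50.0 CPM with IFN-γ alone, and Adgre1, the macrophage marker F4/80, 1334 ± 8.58 and 874.8 ± 41.7 CPM (SD, n = 3 each). Zbtb46, a transcription factor of conventional dendritic cells, was low in both groups, at 11.4 ± 1.45 CPM with 4-OI and 15.5 ± 0.655 CPM with IFN-γ alone. These 3 genes were named after their values were seen. By the tests below, 3 of 13 macrophage markers were higher and 3 lower, and 1 of 13 of conventional dendritic cells was higher and 9 lower. Among all genes tested 22.7% were higher and 25.4% lower. Replicate 1 of IFN-γ alone stood apart from its fellows on the second principal component, and 6 markers of stromal cells summed to 44.8 CPM in it. In the lowest library with IFN-γ alone the same 6 genes summed to 1.97 CPM, and in the 3 with 4-OI to 1.09 to 1.32 CPM. Replicate 3 with 4-OI had the most reads of 2 genes resembling ribosomal RNA, at 2.28% of its counts. Values without both libraries are given where they end or make a call among the 34 genes or turn a median. Those tests set 2 libraries against 2, and the 2 left out were picked from these same data. In them 4601 of all genes were higher and 4695 lower, against 3181 and 3555 with all libraries. Their adjusted p are not comparable with those from all libraries. Whether replicates are separate cultures or animals is not labelled, and the tests therefore measure the spread between these libraries, which may be technical.

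Along the pathway, in stretches delimited after the values were seen, the change was uneven. From glucose import to the fructose bisphosphates 8 of 13 tested genes fell, among them Slc2a3 (2.83-fold lower with 4-OI), Pfkp (2.03-fold) and Hk1 (1.54-fold). The 5 that did not pass included Slc2a1 and Pfkl, the main genes of their steps per kilobase, though in CPM Pfkp exceeded Pfkl. From aldolase to pyruvate kinase 3 of 10 rose, Aldoa (1.36-fold higher), Pgk1 (1.27-fold) and Pkm (1.27-fold), and 2 fell. At the branch point of pyruvate, the kinase genes Pdk1 and Pdk3 fell, and Pdp1 (2.27-fold higher), Mpc2 (1.92-fold) and Mpc1 (1.54-fold) rose. Tests were edgeR's quasi-likelihood tests at an adjusted p of 0.05 (Benjamini-Hochberg, over all 14011 genes tested), on counts scaled between libraries by the trimmed mean of M-values (TMM), as are all CPM below. Of the 34 genes, 33 were tested, and Fbp1 was too low. Among all genes tested 48.1% passed in either direction. Of these 33, 7 were higher with 4-OI, or 21.2%, against 22.7% of all genes tested, and 13 were lower, or 39.4%, against 25.4%. The median log2 fold change of the 33 was -0.13, and that of all genes tested -0.01. By total counts alone, which moved the median of all genes to -0.27, 4 of the 33 were higher and 19 lower, beside 1719 and 5452 of all genes, where TMM scaling gave 3181 and 3555. Without replicate 2 with 4-OI, 4 rather than 7 were higher, beside 2460 rather than 3181 of all genes. Changes were small: 1 gene rose and 2 fell by at least 2-fold (without both libraries that stood apart, Pfkp was at -0.89 on the log2 scale and short of 2-fold), against 6.38% of all genes tested that rose and 11.1% that fell that far. By total counts alone Pdp1, the gene that rose, was at 0.92 and short of 2-fold, while Pfkfb2 at -1.10 and Ldhb at -1.01 fell beyond it.

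**Figure D1:**
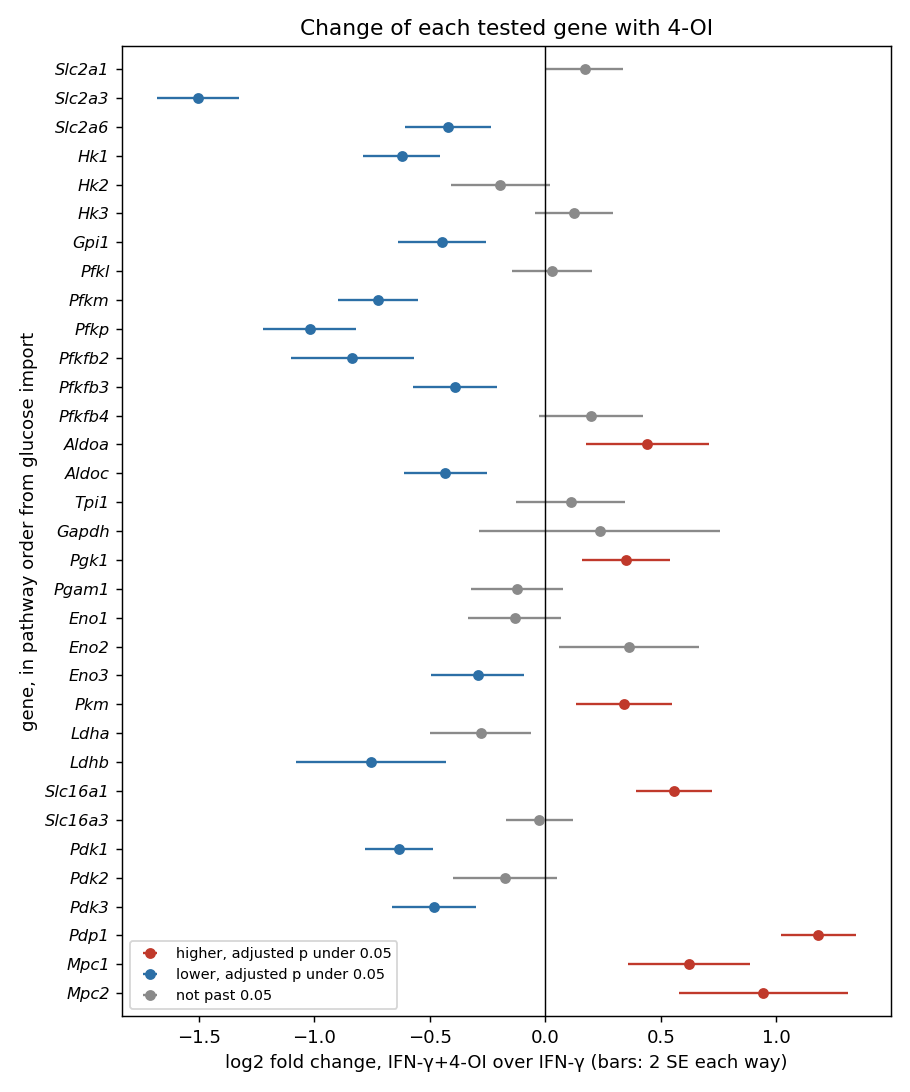
Log2 fold change of the 33 tested genes, IFN-γ with 4-OI over IFN-γ alone, in pathway order from glucose import at the top to the mitochondrial pyruvate carrier at the bottom, with bars of 2 SE each way. Slc2a3 lies farthest to the left at -1.5 and Pdp1 farthest to the right at 1.18, and 13 genes in grey did not pass.

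Read along the pathway, with stretches delimited after the values were seen and so without a test, the 13 tested genes from glucose import to the fructose bisphosphates included 8 that fell and 0 that rose, and their median log2 fold change was -0.42. The 10 from aldolase to pyruvate kinase included 3 that rose and 2 that fell, with a median of 0.17. The 10 of lactate, pyruvate transport and pyruvate dehydrogenase control included 4 that rose and 3 that fell, with a median of -0.10. Over all genes tested 22.7% rose and 25.4% fell, with a median of -0.01.

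Sequence upstream of the starts is shown for 3 higher genes, 2 lower genes and Ldha, to show the letters that regulators of this pathway are known to bind. The windows are 250 bases that end at a start site annotated by RefSeq on GRCm38.p6, and 32 of the 34 genes had at least 1. The 6 shown were picked after the search because they hold a match: the higher genes are those with TGACNNNGC, and for Aldoa and Mpc1 it is their window with that match. Pdk1 and Ldha also have a window that is not shown, which holds no match for Pdk1 and fewer matches for Ldha. Capitals mark every match, on either strand, to TGACNNNGC (the core of the element bound by NRF2), ACGTG or GCGTG (the core of the element bound by HIF-1) and CACGTG (the E-box, which contains ACGTG on both strands).
Slc16a1 upstream, chr3:104638414-104638663, plus strand: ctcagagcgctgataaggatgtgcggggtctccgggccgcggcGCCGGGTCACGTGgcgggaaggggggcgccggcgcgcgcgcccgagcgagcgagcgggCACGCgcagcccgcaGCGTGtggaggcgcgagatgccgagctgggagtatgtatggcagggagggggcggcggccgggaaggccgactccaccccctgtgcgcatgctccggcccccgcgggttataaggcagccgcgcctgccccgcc
Aldoa upstream, chr7:126799255-126799504, minus strand: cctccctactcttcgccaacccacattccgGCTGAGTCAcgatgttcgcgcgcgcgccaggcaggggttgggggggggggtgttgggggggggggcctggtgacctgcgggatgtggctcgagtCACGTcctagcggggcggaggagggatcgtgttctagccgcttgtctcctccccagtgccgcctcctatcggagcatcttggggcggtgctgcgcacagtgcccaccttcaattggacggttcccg
Mpc1 upstream, chr17:8284204-8284453, plus strand: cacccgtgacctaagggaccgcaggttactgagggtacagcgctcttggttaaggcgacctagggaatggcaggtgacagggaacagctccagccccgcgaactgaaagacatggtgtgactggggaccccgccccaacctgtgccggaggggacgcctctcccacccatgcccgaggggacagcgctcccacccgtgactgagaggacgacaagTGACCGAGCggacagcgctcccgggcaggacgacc
Pfkp upstream, chr13:6648772-6649021, minus strand: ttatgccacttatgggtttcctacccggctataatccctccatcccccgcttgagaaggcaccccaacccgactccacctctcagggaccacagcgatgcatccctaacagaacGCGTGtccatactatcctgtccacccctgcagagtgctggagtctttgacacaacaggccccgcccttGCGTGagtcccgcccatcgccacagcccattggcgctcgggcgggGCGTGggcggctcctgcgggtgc
Pdk1 upstream, chr2:71872974-71873223, plus strand: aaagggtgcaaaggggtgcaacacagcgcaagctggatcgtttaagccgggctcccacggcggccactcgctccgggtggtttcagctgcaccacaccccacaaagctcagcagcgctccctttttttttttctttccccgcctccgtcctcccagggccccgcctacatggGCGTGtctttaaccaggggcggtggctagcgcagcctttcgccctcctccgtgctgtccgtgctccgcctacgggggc
Ldha upstream, chr7:46845554-46845803, plus strand: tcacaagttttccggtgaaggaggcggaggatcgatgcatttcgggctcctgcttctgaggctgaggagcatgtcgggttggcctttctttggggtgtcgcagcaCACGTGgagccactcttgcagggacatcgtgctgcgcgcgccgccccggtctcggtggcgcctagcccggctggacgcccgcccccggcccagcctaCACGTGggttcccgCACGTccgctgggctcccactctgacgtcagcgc

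Among the 32 genes, TGACNNNGC occurred in a window of 5, against 11.5% of 27025 genes with a window. Counted by window, which allows for genes with several, it occurred in 10.2% of 49 windows of these genes and 10.2% of all windows. These were 3 of the 6 higher genes with a window (Aldoa, Slc16a1 and Mpc1), 1 of the 12 lower (Hk1) and Fbp1. GCGTG occurred in 21 genes, against 30.9% of all, and among them were 11 of the 12 lower genes, 3 of the 6 higher and 7 of the 13 that did not pass. By window, GCGTG occurred in 53.1% against 28.2% of all. The counts by direction take a gene with a match in any of its windows and were not made by window. Genes with several windows included Pfkm, Pfkfb2 and Hk1 among the lower and Aldoa, Pkm and Mpc1 among the higher. ACGTG occurred in 15 of the 32, against 18.5% of all genes, and in 38.8% of windows against 16.6%. CACGTG occurred in 6, against 6.86% of all genes, and in 12.2% of windows against 6.02%. The Ldha window shown holds CACGTG at 2 places. The windows of the 34 genes were richer in G and C, with a median of 60.4% against 52.4% of all windows, and the part of this in the motif counts was not tested. A match is a description of the letters and not evidence of binding.

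Of 3 glucose transporter genes 2 fell, and Slc2a1 held more of the total. Slc2a3, which encodes the high-affinity transporter GLUT3, had 16.5, 17.5 and 15.5 CPM with 4-OI, against 48.7, 44.7 and 46.9 CPM with IFN-γ alone. The groups lay far apart, and the fall was the largest among the 33 tested genes (log2 fold change -1.5 ± 0.09, SE; edgeR adjusted p = 8.52e-06). Slc2a6, which encodes GLUT6, a transporter of leukocytes, had 71.7, 71.7 and 66.6 CPM with 4-OI, against 83.9, 97.8 and 99.2 CPM with IFN-γ alone, again without overlap (log2 fold change -0.42 ± 0.09, SE; edgeR adjusted p = 0.00688). Slc2a1, which encodes GLUT1, the main glucose transporter of activated immune cells, had 435, 444 and 481 CPM with 4-OI, against 387, 412 and 409.7 CPM with IFN-γ alone. Its log2 fold change of 0.17 did not pass (edgeR adjusted p = 0.132), although the groups did not overlap, and it was -0.09 with total-count scaling. Non-overlap was common here: it held for 26 of the 33 genes and for 59.5% of all genes tested. Per kilobase, Slc2a1 made up 82.6% ± 1.36 of the summed level of the 3 transporters with 4-OI and 74.4% ± 0.744 with IFN-γ alone, and Slc2a3 1.38% ± 0.124 and 3.96% ± 0.336 (SD, n = 3 each). The sum itself averaged 204 ± 7.73 CPM per kilobase with 4-OI and 202 ± 8.86 with IFN-γ alone, with overlapping groups (exact two-sided permutation p = 0.700).

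In bulk RNA, fewer cells of a type and less RNA per cell cannot be told apart, and markers of other cells moved beside these genes. Mast cell and basophil markers fell in all 7 tested, and the 10 listed summed to 106 to 114 CPM with 4-OI and 346 to 378 CPM with IFN-γ alone. Over all genes tested 25.4% were lower and 22.7% higher, beside which the counts of this paragraph stand. Of 9 monocyte markers 6 fell, with a median log2 fold change of -1.21. Their sums were 5749 to 6825 CPM with 4-OI and 6885 to 7726 CPM with IFN-γ alone. Most of these sums is Chil3, which averaged 5239 ± 514 CPM with 4-OI and 5085 ± 575 CPM with IFN-γ alone and did not pass. Of 13 tested markers of conventional dendritic cells 9 fell and 1 rose, with sums of 2576 to 2698 CPM with 4-OI and 3233 to 3553 CPM with IFN-γ alone. Macrophage markers went both ways, 3 higher and 3 lower of 13, with a median log2 fold change of -0.31. Their sum was 2878 to 3001 CPM with 4-OI against 2264 to 2297 CPM with IFN-γ alone. That sum includes the abundant Adgre1, whose values are given above. Of 14 neutrophil markers 9 were lower and 2 higher, and their sums overlapped, at 5638 to 6469 CPM with 4-OI and 5841 to 7351 CPM with IFN-γ alone. No marker of these lists was at 0 in every library. The part of these cell types in the changes of the 34 genes was not tested.

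Among the hexokinases, which trap glucose in the cell by phosphorylating it, Hk1 fell and Hk3 held a larger share. Hk1, the constitutive isoenzyme bound to mitochondria, had 102, 106 and 101 CPM with 4-OI, against 171, 148 and 155 CPM with IFN-γ alone, with a clear gap between the groups (log2 fold change -0.62 ± 0.08, SE; edgeR adjusted p = 5.23e-04). Hk2, the inducible isoenzyme, had 233, 233 and 223 CPM with 4-OI, against 304, 239 and 245 CPM with IFN-γ alone. The highest value was that of the IFN-γ library that stood apart, and the change did not pass (log2 fold change -0.19 ± 0.11, SE; edgeR adjusted p = 0.172). Hk3, the isoenzyme typical of myeloid cells, averaged 127 ± 10.2 CPM with 4-OI and 117 ± 0.830 CPM with IFN-γ alone (SD, n = 3 each), with overlapping groups (log2 fold change 0.13; edgeR adjusted p = 0.254). Without both libraries that stood apart, Hk3 passed as higher, at 0.19 on the log2 scale (edgeR adjusted p = 3.76e-04). That test of 2 libraries against 2 called more genes in general, 4601 higher against 3181 with all libraries, so this call carries little weight. Per kilobase, Hk1 held 20.3% ± 0.581 of the summed hexokinase level with 4-OI and 27.5% ± 0.293 with IFN-γ alone, and Hk3 38.9% ± 1.41 and 31.6% ± 2.32. The sum was 0.881 times as high with 4-OI, at 93.8 ± 4.17 CPM per kilobase with 4-OI against 106 ± 8.06 with IFN-γ alone.

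Gpi1, which encodes the isomerase that turns glucose-6-phosphate into fructose-6-phosphate and has no isoenzyme among these genes, had 999.8, 1026 and 1036 CPM with 4-OI, against 1274, 1444 and 1454 CPM with IFN-γ alone. The lowest IFN-γ library was again the one that stood apart, and still lay above all 3 with 4-OI (log2 fold change -0.45 ± 0.09, SE; edgeR adjusted p = 0.00557).

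In the committing step 2 of 3 isoenzyme genes fell, and shares within the step moved more, in percentage points, than in any other of the 10 steps with several genes. Pfkp, the platelet-type phosphofructokinase, had 192, 192 and 163 CPM with 4-OI, against 400.4, 348 and 361 CPM with IFN-γ alone (log2 fold change -1.02 ± 0.10, SE; edgeR adjusted p = 1.12e-04). The highest library with 4-OI lay far below the lowest with IFN-γ alone. Pfkm, the muscle type, was scarce and fell as well, to 9.15 ± 0.192 CPM with 4-OI, against 15.1 ± 0.514 CPM with IFN-γ alone (log2 fold change -0.72; edgeR adjusted p = 2.81e-04). Pfkl, the liver type and the main one in many leukocytes, had 174, 178 and 159 CPM with 4-OI, against 154, 175 and 171 CPM with IFN-γ alone. Its groups overlapped, and the log2 fold change of 0.03, with 2 SE either way spanning -0.14 to 0.20, did not pass (edgeR adjusted p = 0.809). Without IFN-γ replicate 1 it was -0.03 and with total-count scaling -0.23. Pfkl made up 69.6% ± 0.526 of the summed level per kilobase with 4-OI and 53.2% ± 3.34 with IFN-γ alone, while Pfkp made up 25.8% ± 0.713 and 40.9% ± 3.12 (SD, n = 3 each). These shares divide by the deposited exon length, 11760 bases for Pfkp and 4076 for Pfkl. In CPM, Pfkp averaged 182 with 4-OI and 370 with IFN-γ alone, and Pfkl 170 and 167. Pfkl thus led per kilobase only. The log2 ratio of Pfkl to Pfkp was 1.38, 1.42 and 1.48 with 4-OI and 0.15, 0.53 and 0.45 with IFN-γ alone, and the sum of the 3 genes was 0.780 times as high with 4-OI. Pfkp shares 2.42% of its exon bases with Pitrm1 on the opposite strand, and the Pfkp window shown above holds GCGTG at 3 places.

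The PFKFB genes, whose products set the level of fructose-2,6-bisphosphate, the activator of phosphofructokinase 1, fell in 2 of 3 cases. Pfkfb3, the strongly activating and inducible member, had 288, 271 and 256 CPM with 4-OI, against 384, 339 and 343 CPM with IFN-γ alone (log2 fold change -0.39 ± 0.09, SE; edgeR adjusted p = 0.00860). Pfkfb2, the heart-type member, fell to 9.88 ± 0.572 CPM with 4-OI, against 17.6 ± 2.95 CPM with IFN-γ alone (edgeR adjusted p = 0.00138). Pfkfb4 had 32.6, 33.8 and 25.9 CPM with 4-OI, against 26.5, 26.6 and 27.3 CPM with IFN-γ alone. Replicate 3 with 4-OI lay below all with IFN-γ alone. The gene passed as higher only without that library, at 0.31 on the log2 scale (edgeR adjusted p = 0.0249), or without both that stood apart. In the latter test, of 2 libraries against 2, more genes passed in general, and Pfkfb4 was at 0.30 (edgeR adjusted p = 9.93e-05). With all libraries it was 0.20 (edgeR adjusted p = 0.181). Pfkfb3 still made up 85.4% ± 1.15 of the 3 per kilobase with 4-OI and 88.4% ± 0.373 with IFN-γ alone. Fbp1, which encodes the enzyme of gluconeogenesis that runs this step backwards, had 1, 2 and 2 counts with 4-OI and 3, 13 and 5 with IFN-γ alone, too few to compare.

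**Figure D2:**
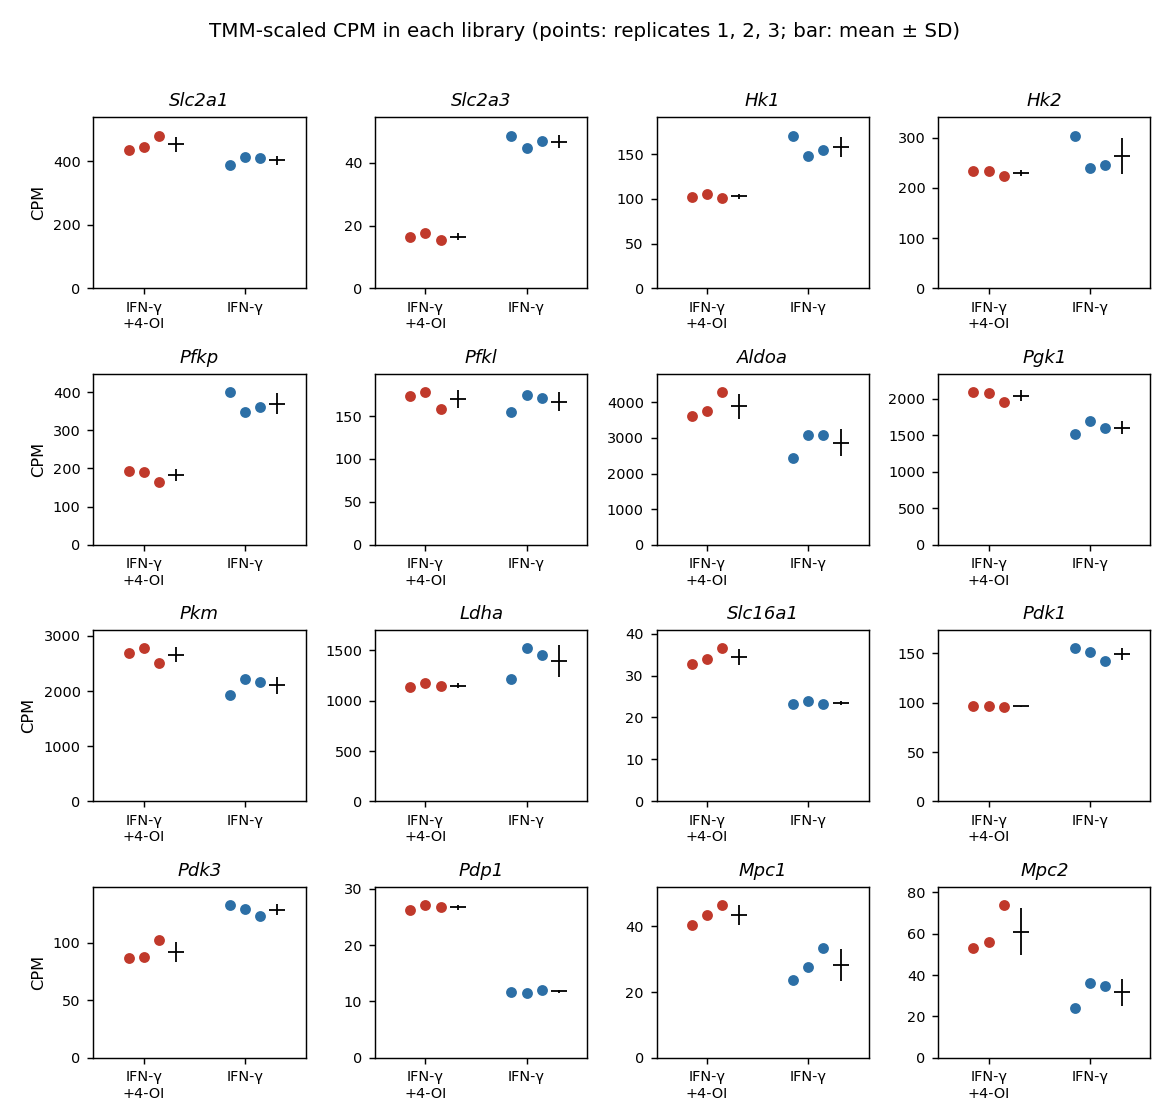
TMM-scaled CPM of 16 of the genes in every library, on linear axes from 0, with IFN-γ and 4-OI in red on the left and IFN-γ alone in blue on the right. Black marks give the mean and SD of 3 libraries. Slc2a3, Pfkp, Pdk1 and Pdp1 show groups far apart, and Pfkl shows groups that overlap.

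Aldolase, the enzyme that splits the 6-carbon sugar, was served almost wholly by Aldoa, the most abundant of the 34 genes per kilobase. Aldoa had 3619, 3770 and 4292 CPM with 4-OI, against 2430, 3080 and 3087 CPM with IFN-γ alone (log2 fold change 0.44 ± 0.13, SE; edgeR adjusted p = 0.0264). The groups did not overlap, but the outer values were the 2 libraries that stood apart. Without both, in a test of 2 libraries against 2, its log2 fold change was 0.26 (edgeR adjusted p = 8.97e-06, not comparable with that from all libraries). The call was lost with total-count scaling (0.18; edgeR adjusted p = 0.175), without replicate 2 with 4-OI (edgeR adjusted p = 0.0682) and without replicate 3 with 4-OI (edgeR adjusted p = 0.0874). Aldoc, the brain-type isoenzyme, moved the other way, with 113, 115 and 122 CPM with 4-OI, against 142, 164 and 167 CPM with IFN-γ alone (log2 fold change -0.43 ± 0.09, SE; edgeR adjusted p = 0.00489). Its share of aldolase per kilobase was 2.47% ± 0.123 with 4-OI and 4.44% ± 0.213 with IFN-γ alone.

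Of the next 4 steps, each with 1 gene here, 1 rose. Tpi1, the triosephosphate isomerase, averaged 998.8 ± 31.9 CPM with 4-OI and 925 ± 126 CPM with IFN-γ alone and did not pass (edgeR adjusted p = 0.473), and the sign of its change turned without IFN-γ replicate 1, without both libraries that stood apart and with total-count scaling. Gapdh, often taken as a constant standard, had 367, 201 and 358 CPM with 4-OI, against 210.3, 344 and 232 CPM with IFN-γ alone. Its libraries interleaved, and its SE of 0.26 was the widest of the 33 genes (log2 fold change 0.23; edgeR adjusted p = 0.491). Transcripts of 177 other genes in GENCODE M21 match Gapdh over at least 300 bases at 90% identity or more, so reads that copies share are uncertain here. Pgk1, phosphoglycerate kinase, which makes the first ATP of the pathway, had 2093, 2076 and 1962 CPM with 4-OI, against 1519, 1696 and 1597 CPM with IFN-γ alone (log2 fold change 0.35 ± 0.10, SE; edgeR adjusted p = 0.0174). The gap between the groups exceeded the spread within each, yet the call was lost with total-count scaling (0.09; edgeR adjusted p = 0.421) and without replicate 1 or replicate 2 with 4-OI or IFN-γ replicate 3 (edgeR adjusted p = 0.0741, 0.0716 and 0.0711). Pgam1, phosphoglycerate mutase, averaged 443 ± 46.4 CPM with 4-OI and 482 ± 12.9 CPM with IFN-γ alone (edgeR adjusted p = 0.348).

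Enolase was almost wholly Eno1, which had 1352, 1363 and 1213 CPM with 4-OI, against 1333, 1522 and 1449 CPM with IFN-γ alone, with overlapping groups (log2 fold change -0.13 ± 0.10, SE; edgeR adjusted p = 0.315). Eno1 passed as lower with total-count scaling, at -0.39 (edgeR adjusted p = 0.0147). It also passed as lower without both libraries that stood apart, at -0.13 (edgeR adjusted p = 0.0180), in a test of 2 against 2 where more genes passed in general. Summing it with its near-identical copy Eno1b left the value at -0.13. Eno3, the muscle type, was 24.2 ± 2.43 CPM with 4-OI and 29.6 ± 1.5 CPM with IFN-γ alone (log2 fold change -0.29; edgeR adjusted p = 0.0428). That call was lost with DESeq2, with no low-count filter and when any 1 library but IFN-γ replicate 1 was left out, and 23.0% of the Eno3 exon bases are shared with Pfn1 on the opposite strand. Eno2, the neuronal type, had 4.29, 3.73 and 3.62 CPM with 4-OI, against 2.61, 3.19 and 3.23 CPM with IFN-γ alone, and did not pass (edgeR adjusted p = 0.0833). Pkm, pyruvate kinase, which makes the second ATP and pyruvate, had 2698, 2772 and 2516 CPM with 4-OI, against 1935, 2216 and 2160 CPM with IFN-γ alone (log2 fold change 0.34 ± 0.10, SE; edgeR adjusted p = 0.0270). The table has 1 row for Pkm, so its splice forms M1 and M2 cannot be told apart. The Pkm call was lost with total-count scaling (0.09; edgeR adjusted p = 0.501), with no filter on low counts (edgeR adjusted p = 0.0587) and without replicate 1 or replicate 2 with 4-OI or IFN-γ replicate 3 (edgeR adjusted p = 0.0933, 0.107 and 0.0767).

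Lactate dehydrogenase, which turns pyruvate into lactate and back, rested on Ldha. Ldha had 1134, 1177 and 1142 CPM with 4-OI, against 1218, 1519.6 and 1451 CPM with IFN-γ alone. All 3 libraries with 4-OI lay below all 3 with IFN-γ alone, but the change did not pass (log2 fold change -0.28 ± 0.11, SE; edgeR adjusted p = 0.0661). Without IFN-γ replicate 1, whose value was the lowest of its group, Ldha passed as lower with -0.37 (edgeR adjusted p = 0.00195). With total-count scaling it passed as lower with -0.53 (edgeR adjusted p = 0.00248). It also did so without both libraries that stood apart, with -0.36 (edgeR adjusted p = 4.16e-08), in a test of 2 against 2 where more genes passed in general. Ldhb, the isoenzyme that favours lactate as a substrate, was near 2 CPM and fell to 1.71 ± 0.0516 CPM with 4-OI, against 2.88 ± 0.305 CPM with IFN-γ alone (log2 fold change -0.76; edgeR adjusted p = 0.00585). Ldha made up over 99% of the pair per kilobase in every library, at 99.4% ± 0.0182 with 4-OI and 99.2% ± 0.0585 with IFN-γ alone.

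The monocarboxylate transporters divided. Slc16a3, which encodes MCT4, the exporter of lactate from glycolytic cells, had 269, 268 and 267 CPM with 4-OI, against 269, 274 and 275 CPM with IFN-γ alone. Its log2 fold change of -0.03 had bounds of -0.17 and 0.12 at 2 SE either way (edgeR adjusted p = 0.796), and with total-count scaling it passed as lower, at -0.28 (edgeR adjusted p = 0.0165). Slc16a1, which encodes MCT1, a transporter of lactate and pyruvate in both directions, had 32.7, 33.9 and 36.5 CPM with 4-OI, against 23.1, 24.0 and 23.1 CPM with IFN-γ alone (log2 fold change 0.56 ± 0.08, SE; edgeR adjusted p = 8.95e-04). Even the lowest library with 4-OI lay well above the highest without it. Slc16a1 held 9.61% ± 0.498 of the pair per kilobase with 4-OI and 6.64% ± 0.125 with IFN-γ alone, and its upstream window above carries TGACNNNGC overlapping CACGTG by 2 bases.

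At the entry of pyruvate into the mitochondrion, 2 of 3 kinase genes fell, and Pdp1 and both carrier genes rose. Pdk1, a kinase that inactivates pyruvate dehydrogenase and a known target of HIF-1, had 96.8, 97 and 95.7 CPM with 4-OI, against 155, 151 and 143 CPM with IFN-γ alone (log2 fold change -0.63 ± 0.07, SE; edgeR adjusted p = 2.60e-04). Pdk3, a second kinase, had 86.7, 87.3 and 102 CPM with 4-OI, against 133, 129 and 123 CPM with IFN-γ alone (log2 fold change -0.48 ± 0.09, SE; edgeR adjusted p = 0.00325). Pdk2 averaged 4.88 ± 0.345 CPM with 4-OI and 5.49 ± 0.0739 CPM with IFN-γ alone and did not pass (edgeR adjusted p = 0.237). Together the 3 kinase genes reached 24.4 ± 0.624 CPM per kilobase with 4-OI and 35.8 ± 1.35 with IFN-γ alone (SD, n = 3 each), 0.682 times as high. Pdp1, a phosphatase that reactivates the enzyme, had 26.2, 27.1 and 26.9 CPM with 4-OI, against 11.8, 11.5 and 12.1 CPM with IFN-γ alone. Its replicates were tight and its rise was the largest of the 33 tested genes (log2 fold change 1.18 ± 0.08, SE; edgeR adjusted p = 1.75e-05), at 1.17 to 1.21 without any single library. Mpc1 and Mpc2 encode the subunits of the pyruvate carrier of the inner mitochondrial membrane. Mpc1 had 40.6, 43.4 and 46.5 CPM with 4-OI, against 23.8, 27.7 and 33.4 CPM with IFN-γ alone (log2 fold change 0.62 ± 0.13, SE; edgeR adjusted p = 0.00543). Mpc2 had 53.0, 56.1 and 73.9 CPM with 4-OI, against 24.2, 36.2 and 34.8 CPM with IFN-γ alone (log2 fold change 0.94 ± 0.18, SE; edgeR adjusted p = 0.00366). The highest and the lowest Mpc2 values were those of the libraries that stood apart. Without both, in a test of 2 libraries against 2, its log2 fold change was 0.62 (edgeR adjusted p = 1.47e-11, not comparable with that from all libraries). With total-count scaling Pdp1 was at 0.92, Mpc2 at 0.68 and Mpc1 at 0.36 on the log2 scale and still passed, and Pdk1 was at -0.89 and Pdk3 at -0.74. Mpc1 shares 11.3% of its exon bases with 4930506C21Rik on the opposite strand.

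**Figure D3:**
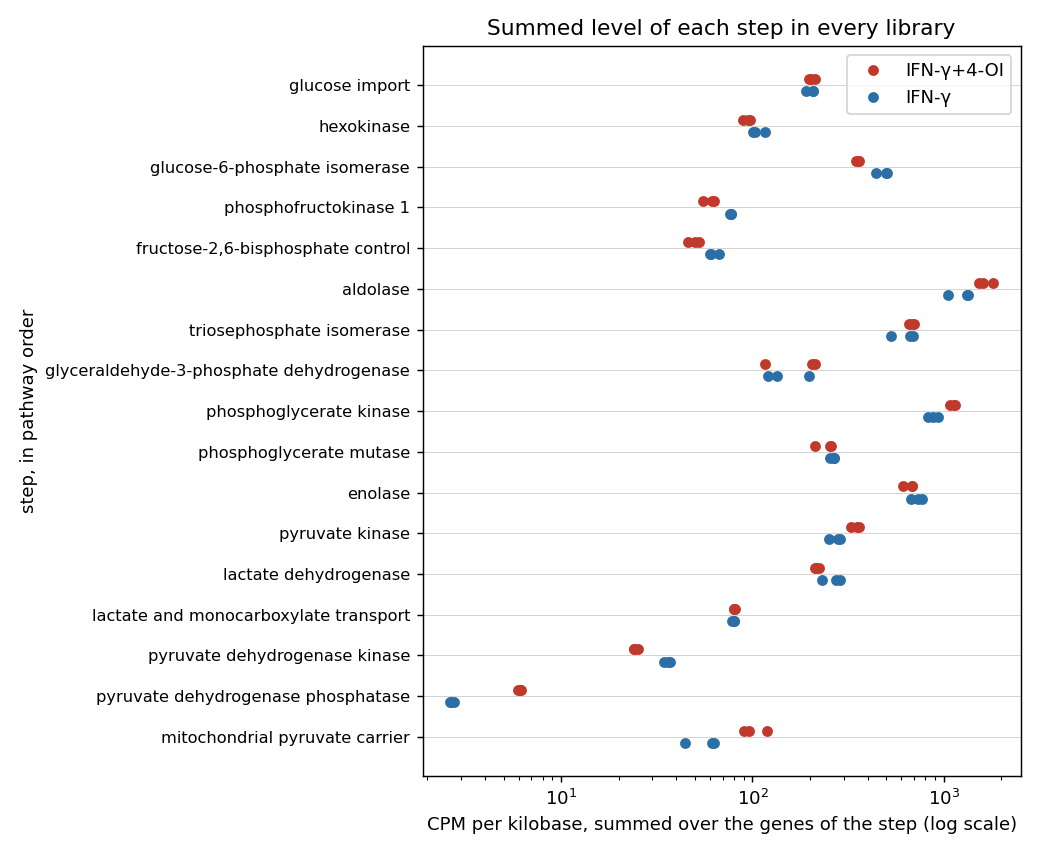
Summed level of the genes of each step in CPM per kilobase of exon, on a log axis, in every library, with IFN-γ and 4-OI in red above IFN-γ alone in blue. Aldolase and phosphoglycerate kinase are the highest steps in both groups. Phosphofructokinase 1 and the pyruvate dehydrogenase kinases are lower with 4-OI, and the phosphatase and the pyruvate carrier are higher. Fbp1 is left out for its low counts.

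Across the pathway, the levels per kilobase spanned from 1608 ± 146 with 4-OI and 1183 ± 156 with IFN-γ alone for Aldoa to near or below 2 for Pfkfb2, Eno2, Ldhb and Pdk2 among tested genes with 4-OI. Eno2 averaged 1.15 ± 0.106 with 4-OI and 0.893 ± 0.103 with IFN-γ alone, and Pfkfb2 1.01 ± 0.0584 and 1.80 ± 0.301 (SD, n = 3 each). Aldoa and Pgk1 held the first and second rank per kilobase in both groups. In CPM Aldoa was first too, but Pkm, with a deposited exon length of 7687 bases, exceeded Pgk1. Pkm averaged 2662 CPM with 4-OI and 2104 with IFN-γ alone, and Pgk1 2044 and 1604. Fbp1 aside, the summed level was lower with 4-OI without overlap for hexokinase, Gpi1, phosphofructokinase 1, PFKFB, lactate dehydrogenase and the pyruvate dehydrogenase kinases, and higher without overlap for aldolase, phosphoglycerate kinase, pyruvate kinase, Pdp1, the pyruvate carrier and, by a ratio of only 1.02, the monocarboxylate transporters. An exact two-sided permutation test of 3 libraries against 3 cannot give less than p = 0.1, the value for each of these sums, so none can pass.

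The 10 steps with more than 1 gene gave 26 shares and 22 pairs of genes. In 22 of the 26 shares and 21 of the 22 pairs the groups did not overlap, where 59.5% of single genes tested did not. No rate was computed for other pairs of genes, and shares within a step depend on each other. By an exact two-sided permutation test of the log2 ratio within each library these 21 pairs reached p = 0.1, the smallest that 3 against 3 can give, and 0.105 adjusted over the 22 pairs. The widest turns were Slc2a1 over Slc2a3, which was 1.65 higher on the log2 scale with 4-OI, Slc2a3 over Slc2a6, 1.07 lower, and Pfkl over Pfkp, 1.05 higher. Aldoa over Aldoc was 0.88 higher and Hk1 over Hk3 0.74 lower. Mpc1 over Mpc2 was the pair whose groups overlapped, with log2 ratios of -1.43, -1.41 and -1.71 with 4-OI and -1.07, -1.43 and -1.10 with IFN-γ alone. Per kilobase, in phosphofructokinase 1, aldolase, enolase, glucose transport and lactate dehydrogenase, the gene with the larger share in IFN-γ alone held a larger share with 4-OI. By counts, the leading gene of phosphofructokinase 1 was Pfkp, which held a smaller share with 4-OI. In PFKFB, monocarboxylate transport and the pyruvate dehydrogenase kinases the leading gene (Pfkfb3, Slc16a3 or Pdk1) held a smaller one, with Pdk1 at 59.6% ± 1.91 with 4-OI and 63.0% ± 0.287 with IFN-γ alone. These ratios are taken within a library and do not depend on how libraries are scaled.

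**Figure D4:**
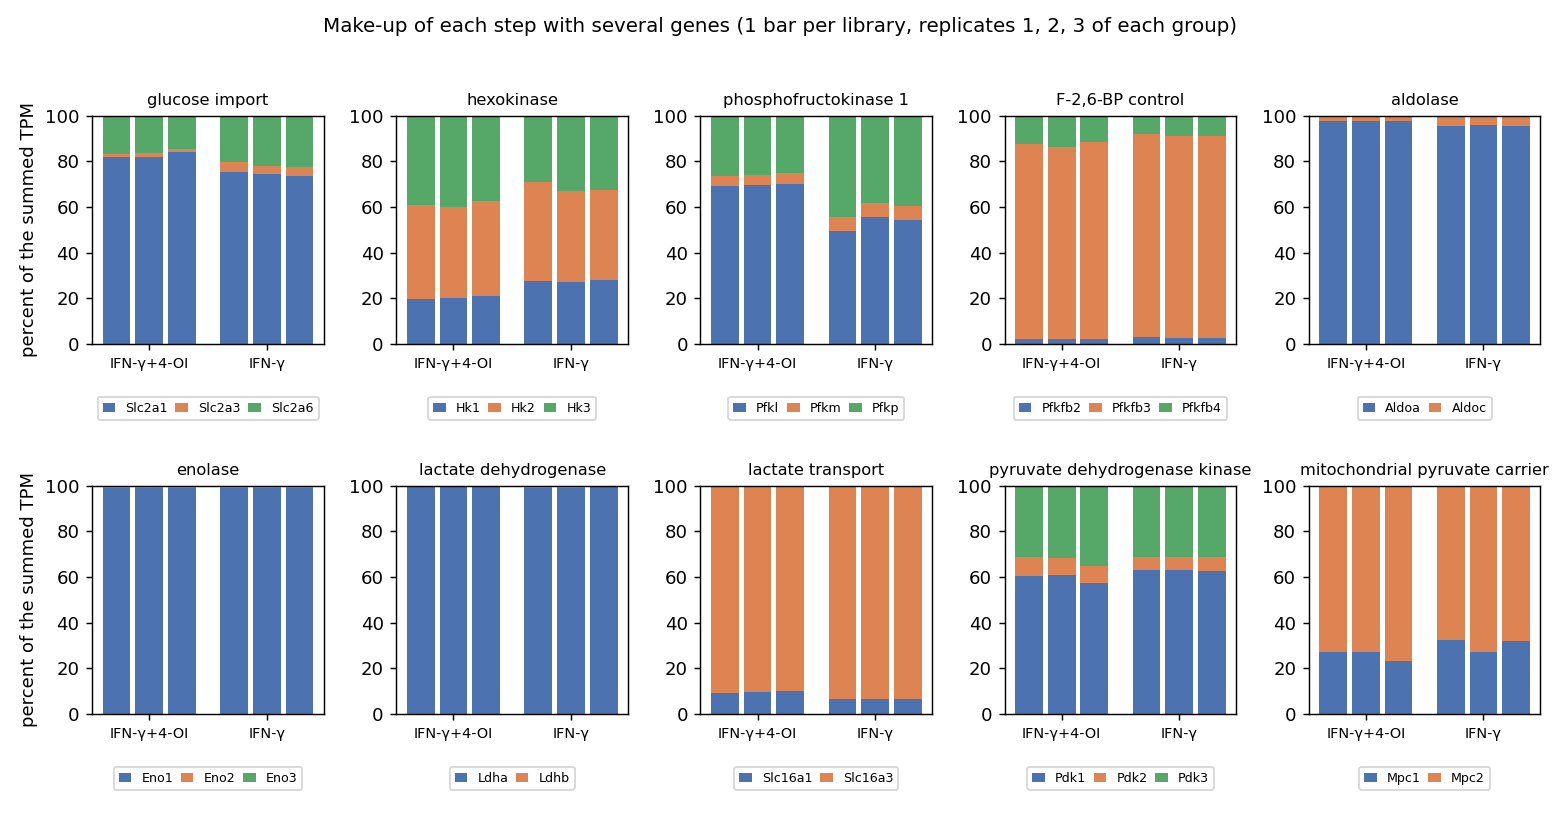
Share of each gene in the summed TPM of its step, in percent, with 1 stacked bar per library, the 3 with IFN-γ and 4-OI left of the 3 with IFN-γ alone. Pfkl holds 69.1% to 70.1% of phosphofructokinase 1 with 4-OI and 49.4% to 55.8% with IFN-γ alone, while enolase and lactate dehydrogenase are nearly all Eno1 and Ldha in every library.

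Other genes of glucose metabolism gave a wider frame. Of 28 tested genes among 35 further transporters, isoenzymes and glycogen enzymes, 6 were higher and 14 lower, against 22.7% and 25.4% of all genes tested, and the median log2 fold change was -0.31, or -0.56 with total-count scaling. The 5 with the smallest p were 1 transporter and 4 enzymes of glycogen. Gbe1, the branching enzyme of glycogen, rose to 259 ± 11.6 CPM with 4-OI, against 74.5 ± 1.34 CPM with IFN-γ alone (log2 fold change 1.80; edgeR adjusted p = 2.48e-06), and Ugp2, which makes the UDP-glucose that glycogen is built from, was 1.81-fold higher. Gys1, glycogen synthase, fell to 90.3 ± 6.11 CPM with 4-OI, against 201 ± 6.30 CPM with IFN-γ alone (log2 fold change -1.16; edgeR adjusted p = 2.17e-05), and Pygl, glycogen phosphorylase, fell 1.65-fold. Slc16a6, a relative of the monocarboxylate transporters, was 3.43-fold higher.

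Among 8 further genes of pyruvate dehydrogenase, 3 were higher and 1 lower (22.7% and 25.4% over all genes tested), with a median log2 fold change of 0.24, which was -0.02 with total-count scaling. Pdk4, the kinase induced in fasting and by fatty acids, had 83, 113 and 86 counts with 4-OI and 2 counts in each library with IFN-γ alone, a ratio of 52.3 with an exact 95% binomial interval of 23.7 to 144 that covers counting error only. It remained scarce, at 1.17 ± 0.140 CPM per kilobase with 4-OI, and with Pdk4 added the sum of the kinases was still lower, at 25.6 ± 0.513 with 4-OI against 35.8 ± 1.35 with IFN-γ alone. Pdha1, the catalytic alpha subunit, was 1.51-fold lower (edgeR adjusted p = 7.89e-04), while Pdhx was 1.49-fold and Dlat 1.24-fold higher (edgeR adjusted p = 0.00197 and 0.0265). Pdhb averaged 81.5 ± 6.57 CPM with 4-OI and 66.7 ± 7.99 CPM with IFN-γ alone and did not pass (edgeR adjusted p = 0.0643).

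A list of regulators was read as well, which also holds genes such as Vegfa and Bnip3 that are not regulators of these genes. Of its 15 tested genes, 2 were higher and 5 lower, against 22.7% and 25.4% of all genes tested. Their median log2 fold change was -0.15, but -0.070 without IFN-γ replicate 1, -0.075 without IFN-γ replicate 2 or without replicate 3 with 4-OI, 0.015 without both libraries that stood apart and -0.41 with total-count scaling. Hif1a, the oxygen-sensitive subunit of HIF-1, averaged 444 ± 13.9 CPM with 4-OI and 332 ± 31.7 CPM with IFN-γ alone (log2 fold change 0.42; edgeR adjusted p = 0.00752). Myc, a transcription factor that drives many glycolytic genes, fell to 7.47 ± 0.718 CPM with 4-OI, against 40.2 ± 0.823 CPM with IFN-γ alone (edgeR adjusted p = 2.31e-06). Foxk1 and Foxk2, factors that promote aerobic glycolysis, were 1.44-fold and 1.33-fold lower (edgeR adjusted p = 0.0113 and 0.00985). Arrdc4, an arrestin-like protein that lowers glucose uptake, was 1.85-fold higher.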

How the data were processed

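The 6 libraries were made with a KAPA stranded mRNA kit, per the labels' protocols. HISAT2 and mm10 stand in the submitters' processing notes. How reads were counted, with which strand setting and gene models, is not given in the sources used here. The authors deposited counts, TPM and FPKM per gene, per the file headers. Counts were used as deposited. TPM, which recompute from counts and exon length for 100% of values within a relative 1e-06, gave shares within a step, and FPKM carry nothing further and were not tested.

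Counts were fitted with edgeR 4.0.16 in R 4.3.3 (filterByExpr, minimum count 10, TMM, robust quasi-likelihood, Benjamini-Hochberg over 14011 genes), checked on simulated data. SE are the log2 fold change over the root of its F. Levels between genes are TMM-scaled CPM per kilobase. Log2 ratios of TPM have 0.1 added. Positions of the tables do not match GRCm38, so only RefSeq windows carry coordinates. Alternatives were other scalings and filters, DESeq2 1.42.0, limma-voom 3.58.1, a replicate block and libraries left out. No pair of replicates agreed within sampling noise (lowest chi-square per gene 4.34). The 34 genes and all lists were chosen with earlier results of these data known. Genes named are all 34 and, of each further list, the 5 with the smallest p. Itgax, Adgre1 and Zbtb46 were named after their values were seen. The Pdk4 interval and the limits of 3 counts cover counting error only, and bounds of 2 SE the spread between libraries. A further motif that was searched is not reported here.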

Additional observations from a re-analysis of the deposited data

How the results depend on the processing

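Of the 20 genes called among the 34, 16 kept their direction and call under every alternative that was run, 12 of them lower and 4 higher, and the exceptions were Aldoa, Pgk1, Pkm and Eno3. No called gene changed sign. With libraries scaled by total counts, 1719 genes were higher and 5452 lower, 4 of the 34 were higher, and their median log2 fold change was -0.39; log2 fold changes of genes that had not passed then turned to -0.090 for Slc2a1, -0.13 for Hk3, -0.23 for Pfkl, -0.053 for Pfkfb4, -0.15 for Tpi1 and -0.026 for Gapdh. At an adjusted p of 0.01, 2079 genes were higher and 4 of the 34. At 2-fold or more, 894 were higher and 1553 lower, with 1 and 2 of the 34. Leaving out single libraries gave 4 to 7 higher members and 12 to 14 lower, beside 2460 to 3791 and 2815 to 4044 of all genes. Medians of the members were then -0.17 to -0.075, and log2 fold changes -0.030 to 0.082 for Pfkl and -0.00380 to 0.19 for Tpi1. With IFN-γ replicate 1 and replicate 3 of the 4-OI group both left out, the median was -0.056, Tpi1 was at -0.021 and Gapdh at -0.029. There 9 members were higher and 15 lower, beside 4601 and 4695 of all genes. Shares within a step taken from counts rather than per length moved by less than the spread between libraries for 10 of 26. The difference changed sign for Hk2 alone, at 1.22 points. By counts Pfkp and not Pfkl leads phosphofructokinase 1 in every library. With 1 TPM rather than 0.1 added, 14 of 22 log2 ratios moved by less than that spread. Hk2 also turned without IFN-γ replicate 1 and without 4-OI replicate 2. The cause of these shifts was not tested beyond the change of scaling or of libraries itself. The same numbers label replicates of both groups without a statement that they pair them, and deviations of same-numbered libraries correlated at 0.26, -0.10 and 0.19 across genes. With the replicate number as a block, 3588 genes were higher and 3925 lower, and 7 and 13 of the 34, as without it. Depth limits Fbp1, Ldhb and Eno2 most.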
